A study of Homo sapiens with 6 samples.

Results

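The genes described here are those of the transforming growth factor beta (TGF-beta), bone morphogenetic protein (BMP) and activin pathway: secreted ligands, their binding proteins and antagonists, cell surface receptors, the SMAD proteins that carry the signal to the nucleus, regulators of the SMADs and genes that SMADs are known to induce. They were taken from a list of 49 gene symbols, picked by name, with earlier results of these data known. Of the 49, 42 had a row among the 12703 genes of the count table and all 42 passed edgeR's filter on low counts. BMP2, BMP6, BMP7, GREM1, BAMBI, TGFBI and ID4 were not analysed here. Every gene of the table reached at least 1.01 CPM (counts scaled by library size) in at least 3 of the libraries.

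RNA sequencing was used to compare PC3 cells that overexpress GCNT1 with control PC3 cells. PC3 is an established line of human prostate cancer cells that was grown from a metastasis in bone. GCNT1 is a glycosyltransferase of the Golgi that adds the core 2 branch to O-glycans. The overexpressing group was 3 stable lines transduced with lentiviral particles carrying the GCNT1 open reading frame (Lenti-ORF), the control group was 3 lines transduced with negative-control lentiviral particles, and each line gave 1 library. Whether the lines of a group came from separate transductions is not given in the sources used here, so the p values measure the spread between these lines.

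TGF-beta, activin and BMP ligands bind as dimers to pairs of type I and type II serine/threonine kinase receptors, which phosphorylate receptor-regulated SMADs. TGF-beta and activins act mainly through SMAD2 and SMAD3 and BMPs through SMAD1, SMAD5 and SMAD9, and both kinds join SMAD4 to control transcription. In the prostate, TGF-beta restrains the growth of normal epithelium, whereas in advanced prostate cancer it is linked to invasion, and BMP and activin signals are studied for their part in bone metastasis.

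Control libraries 1, 2 and 3 had total counts of 12755888, 12717300 and 12125672, and the totals of overexpressing libraries 1, 2 and 3 were 11392213, 13411484 and 13825704. As a check of the labels, GCNT1 itself had 9, 13 and 8 counts in controls and 13, 16 and 35 counts in overexpressing cells. These counts are low and the groups touch in raw counts, with the highest value in overexpressing library 3. GCNT1 had a log2 fold change, overexpressing over control cells, of 0.98 (standard error, SE, 0.37; edgeR's quasi-likelihood test, Benjamini-Hochberg adjusted p = 0.0362). This value was 0.49 without overexpressing library 3, 0.91 without control library 1 and 0.88 without control library 3, and in each of these fits GCNT1 was no longer past the threshold.

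A gene was called when its adjusted p was under 0.05 and its log2 fold change was at least 0.58 in either direction. Among the 42 pathway genes 15 were called (35.7%), against 19.3% of all 12703 genes. The calls were mostly falls: 3 pathway genes were called higher in GCNT1 overexpressing cells and 12 were called lower, where 8.28% of all genes were called higher and 11.1% lower. The balance over all genes depends on the scaling: 42.8% of the called genes rose in the main fit and 51.1% with library size alone, where 3 pathway genes were called higher and 9 lower. By the adjusted p without the fold change threshold, 28 of the 42 passed, 9 higher and 19 lower, beside 57.6% of all genes, 28.3% higher and 29.3% lower. The 3 control and the 3 overexpressing libraries did not overlap in CPM for 30 of the 42 pathway genes (71.4%), compared with 62.5% of all genes. The median log2 fold change was -0.13 over the 42 genes and 0.00 over all genes.

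**Figure D1:**
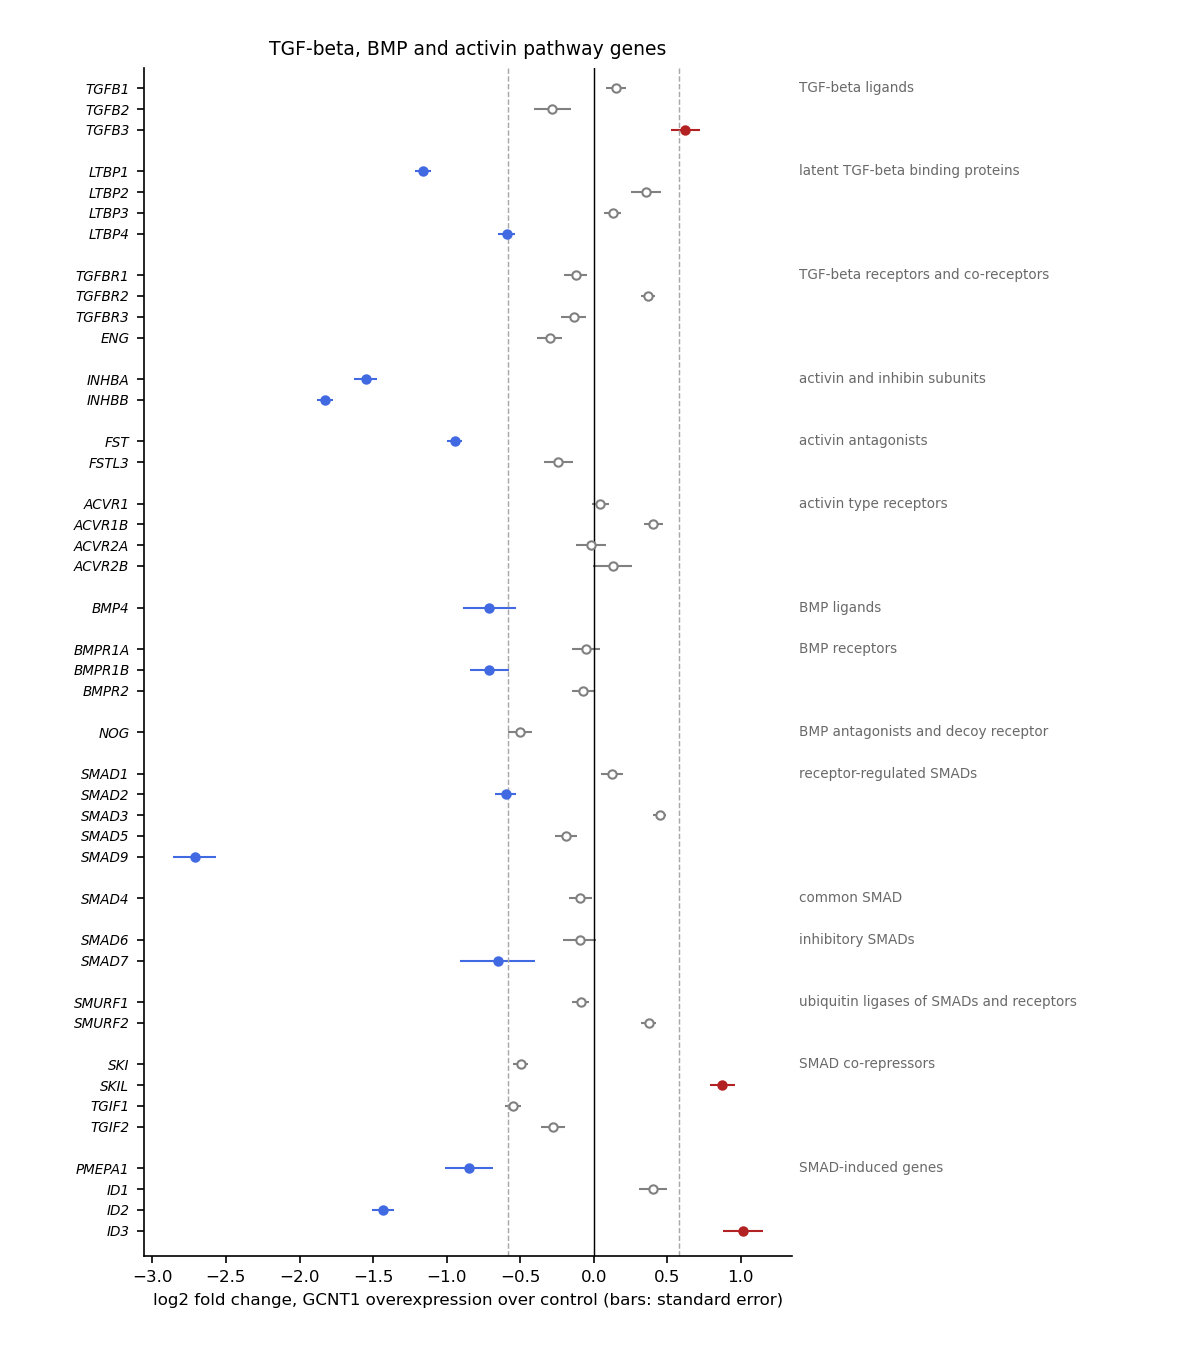
Log2 fold change of GCNT1 overexpressing over control PC3 cells (horizontal axis) for each of the 42 pathway genes, grouped by role, with bars for the standard error (3 libraries per group). Filled points are called genes (red higher, blue lower), open points are not called, and dashed lines mark the threshold of 0.58; the falls of SMAD9 (-2.71), INHBB (-1.83) and INHBA (-1.55) lie farthest from 0.

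Of the TGF-beta ligands, TGFB3 was the gene that rose. TGFB3 (Entrez identifier 7043) lies on chromosome 14 of GRCh38 from 75958097 to 75983011 and had 135, 140 and 119 counts in controls and 182, 247 and 220 in overexpressing cells. Every overexpressing library was above every control library, at 16.4 ± 1.34 against 10.7 ± 0.59 CPM (SD, n = 3), where CPM is scaled with TMM factors here and for each gene that follows. The log2 fold change was 0.62 (SE 0.10; edgeR's quasi-likelihood test, Benjamini-Hochberg adjusted p = 0.000126). Without overexpressing library 2 it was 0.56, under the fold change threshold. The gene shares its locus with IFT43 on the opposite strand, and IFT43 had 124, 129 and 116 counts in controls and 148, 179 and 168 in overexpressing cells (log2 fold change 0.33). This overlap is of whole gene spans, and overlap of exons was not examined. Since it is not given whether the counting used strand, reads from any stretch shared by exons of both genes could be mixed.

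TGFB1, the most widely expressed ligand of the family, had 1651, 1686 and 1811 counts in controls and 1924, 2078 and 2103 in overexpressing cells. Its CPM values overlapped between the groups and its log2 fold change of 0.15 did not pass the adjusted p (edgeR's quasi-likelihood test, Benjamini-Hochberg adjusted p = 0.0621). TGFB2, with 121 to 146 counts in controls and 87 to 140 with overexpression, had a log2 fold change of -0.28 and did not pass either.

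The latent TGF-beta binding proteins, which hold the inactive ligand in the extracellular matrix, differed from one another in direction. LTBP1 (Entrez identifier 4052, chromosome 2, 32946953 to 33399509) had 4557, 4719 and 4180 counts in controls and 1731, 2356 and 2377 in overexpressing cells. The overexpressing libraries were all below the controls, and the mean level dropped from 365 ± 12.9 to 163 ± 11.9 CPM (SD, n = 3). LTBP1 fell by 55.2%, a log2 fold change of -1.16 (SE 0.06; edgeR's quasi-likelihood test, Benjamini-Hochberg adjusted p = 2.33e-09). A lncRNA gene overlaps it on the opposite strand.

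LTBP4 (Entrez identifier 8425, chromosome 19, 40593166 to 40629820) had 911, 935 and 947 counts in controls and 583, 699 and 703 with overexpression. The groups did not overlap, and the level was 75.9 ± 3.91 CPM in controls and 50.4 ± 0.53 CPM in overexpressing cells (SD, n = 3). Its log2 fold change of -0.59 (SE 0.06; edgeR's quasi-likelihood test, Benjamini-Hochberg adjusted p = 2.22e-06) was the called value closest to the threshold. It was -0.55 without control library 3 and -0.53 with library size alone as the scaling, both short of the threshold. LTBP2 and LTBP3 had log2 fold changes of 0.36 and 0.13, and of this pair LTBP2 passed the adjusted p alone.

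Of 11 receptors and co-receptors for TGF-beta, activin and BMP, BMPR1B was called and 4, BMPR1B included, passed the adjusted p (36.4%, beside the 57.6% of all genes). The 1 call is 9.09% of the 11, beside 19.3% of all genes, and with so few genes no difference is read from it. The log2 fold changes ran from -0.71 to 0.41. TGFBR2, the type II receptor for TGF-beta, had 1853, 1863 and 1727 counts in controls and 2141, 2670 and 2731 in overexpressing cells. ACVR1B, an activin type I receptor, had 365, 362 and 361 counts in controls and 434, 541 and 569 in overexpressing cells. Both were higher in every overexpressing library, with log2 fold changes of 0.37 and 0.41 that passed the adjusted p but not the fold change threshold. ENG, the co-receptor endoglin, passed the adjusted p with a log2 fold change of -0.30. TGFBR1, TGFBR3, ACVR1, ACVR2A, ACVR2B, BMPR1A and BMPR2 did not pass, with log2 fold changes between -0.14 and 0.13.

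Among the ligands of the 42 genes, the activin subunits had the largest changes. INHBA and INHBB encode the beta subunits whose dimers form the activins, and both genes fell. INHBB (Entrez identifier 3625, chromosome 2, 120346136 to 120351803) had 5974, 6374 and 6085 counts in controls and 1732, 1945 and 1865 in overexpressing cells. The groups were far apart, at 500.4 ± 22.3 and 141 ± 8.75 CPM (SD, n = 3). INHBB fell by 71.8%, with a log2 fold change of -1.83 (SE 0.06; edgeR's quasi-likelihood test, Benjamini-Hochberg adjusted p = 2.35e-11). Lower RNA in each cell and a smaller share of cells that express a gene cannot be told apart in bulk libraries, here or for the other genes.

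INHBA (Entrez identifier 3624, chromosome 7, 41685114 to 41705406) had 563, 514 and 482 counts in controls and 158, 210 and 202 in overexpressing cells. All overexpressing libraries were below all controls, with 14.4 ± 0.822 CPM against 42.3 ± 2.16 CPM (SD, n = 3). The gene fell by 65.8%, a log2 fold change of -1.55 (SE 0.08; edgeR's quasi-likelihood test, Benjamini-Hochberg adjusted p = 3.07e-09). INHBA-AS1 overlaps INHBA on the opposite strand, which leaves its count uncertain to the extent that strand was not used.

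Follistatin, the product of FST, binds activins and keeps them from their receptors. FST (Entrez identifier 10468, chromosome 5, 53480629 to 53487134) had 4756, 4280 and 4374 counts in controls and 2247, 2523 and 2666 in overexpressing cells. The antagonist gene was thus lower in every overexpressing library as well, at 189 ± 5.24 CPM against 364 ± 17.9 CPM (SD, n = 3). Its log2 fold change was -0.95 (SE 0.05; edgeR's quasi-likelihood test, Benjamini-Hochberg adjusted p = 4.76e-09). FSTL3, a related binding protein, had 263, 280 and 278 counts in controls and 248, 258 and 235 in overexpressing cells. Its groups overlapped in CPM, and its log2 fold change of -0.24 passed the adjusted p narrowly (edgeR's quasi-likelihood test, Benjamini-Hochberg adjusted p = 0.0487).

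Among the BMP ligands of the list, BMP4 had a row. BMP4 (Entrez identifier 652, chromosome 14, 53949736 to 53956891) had 58, 69 and 76 counts in controls and 31, 46 and 56 in overexpressing cells. The lowest control and the highest overexpressing library were close in raw counts but did not overlap in CPM, and the means were 5.53 ± 0.91 and 3.33 ± 0.645 CPM (SD, n = 3). BMP4 thus had a log2 fold change of -0.71 (SE 0.18; edgeR's quasi-likelihood test, Benjamini-Hochberg adjusted p = 0.0046). A lncRNA gene overlaps BMP4 on the opposite strand.

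BMPR1B, a type I receptor for BMPs (Entrez identifier 658, chromosome 4, 94757955 to 95158450), had 238, 189 and 202 counts in controls and 97, 172 and 143 in overexpressing cells. Its groups did not overlap in CPM, although the spread within each group was wide, with means of 17.1 ± 1.87 and 10.3 ± 2.08 CPM (SD, n = 3). The log2 fold change was -0.71 (SE 0.13; edgeR's quasi-likelihood test, Benjamini-Hochberg adjusted p = 0.00048). NOG encodes noggin, which binds BMPs and blocks them. Its counts were 321, 322 and 343 in controls and 220, 252 and 274 with overexpression, lower in every overexpressing library. With a log2 fold change of -0.50, NOG passed the adjusted p and stayed under the fold change threshold.

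Of the 8 SMAD genes 3 were called (37.5%, beside 19.3% of all genes), all lower, where 11.1% of all genes were called lower. With 8 genes no difference is read from this. SMAD9, a receptor-regulated SMAD of the BMP arm (Entrez identifier 4093, chromosome 13, 36844831 to 36920854), had 151, 143 and 125 counts in controls and 21, 23 and 24 in overexpressing cells. The libraries within each group were close to one another and the groups far apart, at 11.4 ± 0.722 and 1.73 ± 0.0744 CPM (SD, n = 3). SMAD9 fell by 84.7%, the largest change among the 42 genes, with a log2 fold change of -2.71 (SE 0.14; edgeR's quasi-likelihood test, Benjamini-Hochberg adjusted p = 5.4e-09). SMAD1 and SMAD5, the other receptor-regulated SMADs of that arm, had log2 fold changes of 0.12 and -0.19. Their CPM values overlapped between the groups, and SMAD5 passed the adjusted p alone (edgeR's quasi-likelihood test, Benjamini-Hochberg adjusted p = 0.0445).

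SMAD2 and SMAD3, which carry TGF-beta and activin signals, moved in opposite directions. SMAD2 (Entrez identifier 4087, chromosome 18, 47808957 to 47930872) had 546, 597 and 545 counts in controls and 353, 387 and 452 in overexpressing cells. It was lower in every overexpressing library, at 30.2 ± 1.95 against 45.8 ± 2.29 CPM (SD, n = 3), with a log2 fold change of -0.60 (SE 0.07; edgeR's quasi-likelihood test, Benjamini-Hochberg adjusted p = 1.19e-05). The value was -0.54 without overexpressing library 2, -0.56 without control library 2 and -0.54 with library size alone, each under the threshold. A lncRNA gene lies on the opposite strand of SMAD2, and the intronic transcript SMAD9-IT1 lies within SMAD9, so reads of these could be mixed. SMAD3 had 2452, 2435 and 2244 counts in controls and 3055, 3650 and 3697 in overexpressing cells. It was higher in every overexpressing library, and its log2 fold change of 0.45 (SE 0.04) passed the adjusted p but not the fold change threshold (edgeR's quasi-likelihood test, Benjamini-Hochberg adjusted p = 1.69e-06). SMAD4, the partner shared by all arms, had 443 to 483 counts in controls and 368 to 543 with overexpression, and its log2 fold change of -0.09 did not pass.

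The inhibitory SMADs, SMAD6 and SMAD7, block receptor signalling and are themselves induced by it. SMAD7 (Entrez identifier 4092, chromosome 18, 48919853 to 48950965) had 21, 24 and 17 counts in controls and 12, 17 and 13 in overexpressing cells. The raw counts touched at 17, and the CPM values, 1.68 ± 0.245 and 1.07 ± 0.16 (SD, n = 3), did not overlap. Its log2 fold change was -0.65 (SE 0.25; edgeR's quasi-likelihood test, Benjamini-Hochberg adjusted p = 0.0407). This call was lost in glmTreat and in 7 of the 13 other alternatives, with values of -0.64 and -0.55 without overexpressing libraries 1 and 3, -0.65 and -0.54 without control libraries 1 and 2, -0.66 in DESeq2, -0.60 with library size alone and -0.65 with the replicate block. Across these 13, the adjusted p of SMAD7 by Benjamini-Hochberg ran from 0.0372 to 0.186 (edgeR, limma-voom and DESeq2). SMAD6 was counted 118 to 144 times in controls and 100 to 148 times with overexpression, and its log2 fold change of -0.10 did not pass.

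Regulators of the SMADs were split in direction. SKIL encodes SnoN, a nuclear co-repressor of SMAD-driven transcription. SKIL (Entrez identifier 6498, chromosome 3, 170357715 to 170396849) had 275, 245 and 218 counts in controls and 392, 522 and 536 in overexpressing cells. The groups did not overlap, at 20.0 ± 1.73 and 36.6 ± 2.38 CPM (SD, n = 3), and the log2 fold change was 0.87 (SE 0.08; edgeR's quasi-likelihood test, Benjamini-Hochberg adjusted p = 1.46e-06). Its relative SKI, also a co-repressor, had 2921, 2902 and 2785 counts in controls and 2021, 2165 and 2320 in overexpressing cells. SKI and the co-repressors TGIF1 and TGIF2 were lower in every overexpressing library, with log2 fold changes of -0.50, -0.55 and -0.28 that passed the adjusted p alone. SMURF2, a ubiquitin ligase that marks SMADs and receptors for degradation, had a log2 fold change of 0.37 and also passed the adjusted p alone, whereas its relative SMURF1, at -0.09, did not.

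The SMAD-induced genes with a row were PMEPA1, ID1, ID2 and ID3, and 3 of these 4 were called, beside 19.3% of all genes; with 4 genes no difference is read from this. PMEPA1 encodes a membrane protein that is induced by TGF-beta and limits its signalling. PMEPA1 (Entrez identifier 56937, chromosome 20, 57648396 to 57711472) had 88, 98 and 101 counts in controls and 64, 49 and 57 in overexpressing cells. It was lower in every overexpressing library, at 4.38 ± 1.02 against 7.80 ± 0.778 CPM (SD, n = 3). For PMEPA1 the log2 fold change was -0.85 (SE 0.16; edgeR's quasi-likelihood test, Benjamini-Hochberg adjusted p = 0.000617). The lncRNA gene NKILA overlaps PMEPA1 on the opposite strand, so the same uncertainty about strand applies.

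The ID genes encode inhibitors of basic helix-loop-helix transcription factors and are textbook targets of BMP signalling, and here they did not move together. ID2 (Entrez identifier 3398, chromosome 2, 8682056 to 8684461) had 514, 499 and 459 counts in controls and 165, 199 and 219 in overexpressing cells. All overexpressing libraries were below all controls, at 14.8 ± 0.674 against 39.9 ± 1.02 CPM (SD, n = 3). ID2 fell by 63.0%, with a log2 fold change of -1.43 (SE 0.07; edgeR's quasi-likelihood test, Benjamini-Hochberg adjusted p = 3.75e-09). ID2-AS1 overlaps ID2 on the opposite strand. ID3 (Entrez identifier 3399, chromosome 1, 23557926 to 23559501) had 54, 46 and 54 counts in controls and 105, 112 and 116 in overexpressing cells. Its groups did not overlap and lay in the opposite order, at 4.18 ± 0.446 and 8.48 ± 0.512 CPM (SD, n = 3). The log2 fold change of ID3 was 1.02 (SE 0.13; edgeR's quasi-likelihood test, Benjamini-Hochberg adjusted p = 2.55e-05), the largest rise of the 42 genes. ID1, with 344, 406 and 364 counts in controls and 505, 472 and 594 with overexpression, had a log2 fold change of 0.40 and passed the adjusted p alone.

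**Figure D2:**
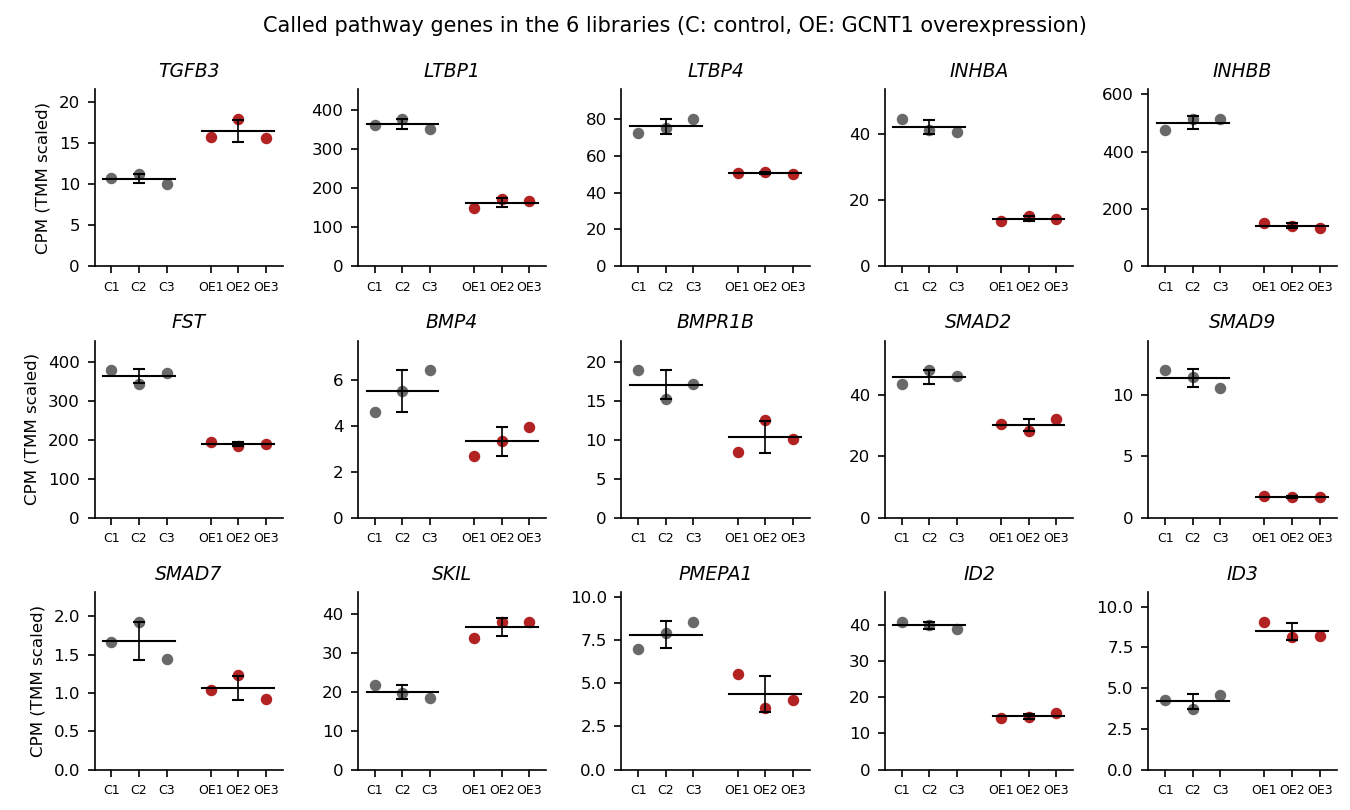
CPM scaled with TMM factors (vertical axes, each from 0) of the 15 called pathway genes in control libraries C1 to C3 and GCNT1 overexpressing libraries OE1 to OE3; points are libraries, lines are group means and bars are SDs (n = 3). In each panel the groups do not overlap, with TGFB3, SKIL and ID3 higher and the other 12 genes lower in overexpressing cells.

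The sequence before a transcript start is shown for the activin subunit genes, which fell together, and for SMAD9 and ID3, the largest fall and the largest rise. RefSeq promoter windows of GRCh38.p14 were matched by symbol for 40 of the 42 genes, and each printed sequence is the 250 bases before a listed start, 5′ to 3′ on the strand of the gene, with no base in an exon of GENCODE 44. The windows are chr7:41703091-41703340 on the minus strand for INHBA, chr2:120345886-120346135 on the plus strand for INHBB, chr13:36920239-36920488 on the minus strand for SMAD9 and chr1:23559502-23559751 on the minus strand for ID3. Those of INHBA and SMAD9 lie inside the span of their own gene, before the start of one of its transcripts. Capitals mark CAGAC on either strand, a form of the SMAD binding element, and GGCGCC, a GC-rich motif bound by SMADs, and the motifs do not overlap in these windows.
INHBA: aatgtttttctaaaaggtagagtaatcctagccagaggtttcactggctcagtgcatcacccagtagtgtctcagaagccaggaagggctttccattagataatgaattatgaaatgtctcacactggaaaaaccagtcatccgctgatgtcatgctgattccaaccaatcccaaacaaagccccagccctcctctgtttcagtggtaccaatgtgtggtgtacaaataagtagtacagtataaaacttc
INHBB: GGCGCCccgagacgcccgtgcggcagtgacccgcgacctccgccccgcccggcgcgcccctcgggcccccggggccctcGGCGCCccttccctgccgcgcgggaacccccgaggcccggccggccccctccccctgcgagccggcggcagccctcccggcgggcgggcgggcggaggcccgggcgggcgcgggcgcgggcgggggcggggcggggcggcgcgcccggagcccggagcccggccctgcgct
SMAD9: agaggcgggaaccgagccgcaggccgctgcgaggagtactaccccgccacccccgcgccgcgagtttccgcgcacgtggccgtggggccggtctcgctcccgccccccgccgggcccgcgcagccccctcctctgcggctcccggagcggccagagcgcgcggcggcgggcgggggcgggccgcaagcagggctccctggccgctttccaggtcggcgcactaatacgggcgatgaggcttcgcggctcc
ID3: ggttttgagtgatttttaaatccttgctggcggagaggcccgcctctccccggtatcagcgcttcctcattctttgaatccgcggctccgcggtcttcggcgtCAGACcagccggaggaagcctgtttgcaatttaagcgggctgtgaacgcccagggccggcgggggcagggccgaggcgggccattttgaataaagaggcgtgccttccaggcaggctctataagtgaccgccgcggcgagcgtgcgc
The windows of the activin subunit genes differed in base composition, with 42.8% G or C in INHBA and 89.6% in INHBB. CAGAC occurred 1 time in the ID3 window and GGCGCC 2 times in the INHBB window, and neither was found in the INHBA and SMAD9 windows. Among all 35116 promoter windows of that length, 38.0% held CAGAC and 16.4% held GGCGCC. Of the 81 windows of the pathway genes, 30 held CAGAC (37.0%) and 18 held GGCGCC (22.2%), and of the 29 windows of the 15 called genes, 14 held CAGAC (48.3%) and 7 held GGCGCC (24.1%). These shares were not tested. A match is a description of the sequence and not a measured binding site.

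Ratios of read counts within a library need no scaling between libraries, and they describe how pathway genes shifted against each other. These pairs were chosen after their values were seen and were not tested. FST reads per INHBB read were 0.796, 0.671 and 0.719 in the control libraries and 1.30, 1.30 and 1.43 in the overexpressing libraries. The antagonist therefore gained on the activin subunit, although both genes fell. SMAD2 reads per SMAD3 read were 0.223, 0.245 and 0.243 in controls and 0.116, 0.106 and 0.122 with overexpression. LTBP1 reads per TGFB1 read were 2.76, 2.80 and 2.31 in controls and 0.900, 1.13 and 1.13 with overexpression. Both ratios were lower in every overexpressing library. ID2 reads per ID3 read showed the largest shift, from 9.52, 10.8 and 8.50 in controls to 1.57, 1.78 and 1.89 with overexpression. TGFB3 reads per TGFB2 read were 1.08, 0.959 and 0.983 in controls and 2.09, 2.08 and 1.57 with overexpression, and FST reads per INHBA read averaged 8.62 ± 0.401 and 13.1 ± 1.10 (SD, n = 3).

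**Figure D3:**
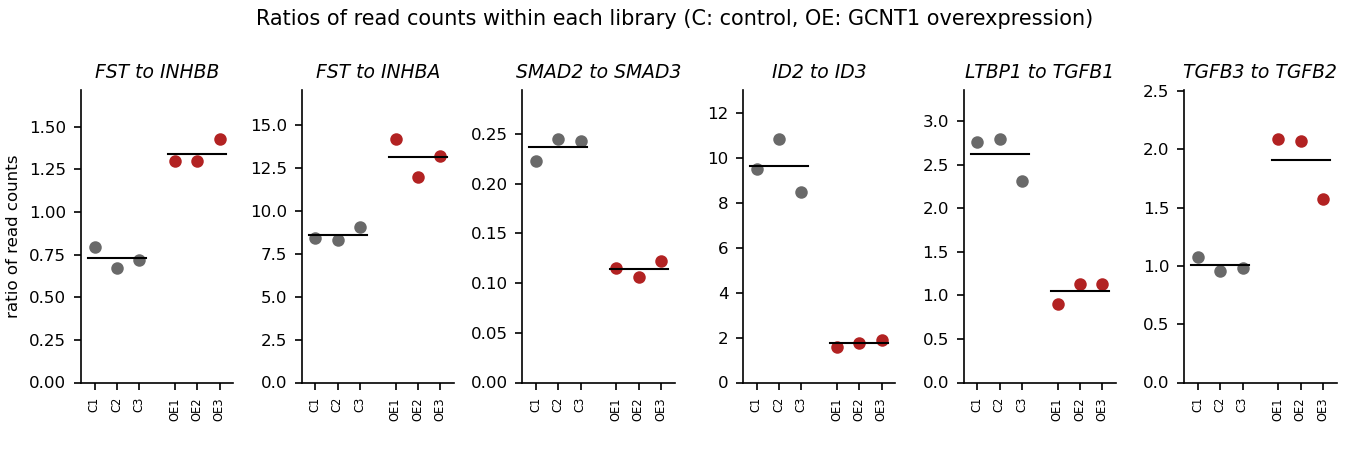
Ratio of the read counts of a gene pair (vertical axes, each from 0) within each control (C1 to C3) and GCNT1 overexpressing (OE1 to OE3) library; points are libraries and lines are group means. The groups do not overlap for any of the 6 pairs, and the mean ID2 to ID3 ratio drops from 9.62 to 1.75.

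Levels were compared between genes after division by the length of the MANE Select transcript. In control cells FST and INHBB were the most abundant of the 42 genes, at 158 ± 7.78 and 156 ± 6.97 CPM per kilobase (SD, n = 3), which did not differ beyond their spread. LTBP1 and TGFB1 came next, at 56.1 ± 1.99 and 50.3 ± 4.20 CPM per kilobase. In overexpressing cells FST was first at 82.2 ± 2.28 CPM per kilobase, TGFB1 followed at 55.9 ± 3.36, and INHBB stood at 44.0 ± 2.73, close to TGFBR2 at 42.2 ± 1.15. At the low end, SMAD7 stood at 0.502 ± 0.0733 CPM per kilobase in controls, where its own SD covers the gap to ACVR2B at 0.557 ± 0.0193, and in overexpressing cells SMAD9 and SMAD7 were lowest, at 0.311 ± 0.0134 and 0.319 ± 0.0479 CPM per kilobase.

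Some called genes lie among genes that moved the same way. The median log2 fold change of the 50 nearest analysed genes was -0.50 around ID2, -0.50 around FST and -0.45 around LTBP1, and ID2 and LTBP1 are both on the short arm of chromosome 2. Relative to these neighbours the log2 fold changes were -0.94 for ID2, -0.45 for FST and -0.71 for LTBP1. Around INHBB, also on chromosome 2, the median was 0.00, and around INHBA it was -0.15. SMAD9 lay among genes with a median of 0.25, SKIL of 0.13 and ID3 of -0.16, so the change of SMAD9 and of ID3 was opposite in sign to that of its neighbours. For the remaining called genes the local median was between -0.21 for PMEPA1 and 0.04 for BMPR1B. What part the surroundings have in these changes was not tested.

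Beyond the 42 genes, 123 other genes of the pathway were listed by role, of which 75 had a row and 48 were not analysed here. Of the 75, 25 were called (33.3%, beside 19.3% of all genes), 10 higher and 15 lower. With these 25 included, 54 of the 75 passed the adjusted p (72.0%, beside 57.6% of all genes). By role, the calls were 2 of 5 other ligands, 3 of 8 other receptors and co-receptors, 2 of 6 other extracellular antagonists, 3 of 8 genes of latent TGF-beta activation and matrix storage, 2 of 24 other intracellular regulators, 8 of 18 genes listed as induced by TGF-beta and SMAD3 and 5 of 6 listed as induced by BMP and SMAD1. No difference between these lists was tested. Some called genes met the 1.01 CPM of the table only with libraries of the group where they were higher. These were GCNT1, AMH, AMHR2 and ZEB2, through overexpressing libraries, and SMAD7, BMP8B, CHRDL1, BGN, RUNX3 and GATA3, through controls. Genes as low in both groups would have no row.

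The largest rise was that of NEO1, which encodes neogenin, a receptor that binds BMP co-receptors of the RGM family. NEO1 had 59, 41 and 37 counts in controls and 569, 787 and 740 in overexpressing cells, a log2 fold change of 3.83 (SE 0.12). The largest falls were those of SCUBE3 and RUNX3. SCUBE3, a secreted glycoprotein that binds TGF-beta receptors, had 1042, 1028 and 945 counts in controls and 19, 23 and 26 in overexpressing cells, a log2 fold change of -5.56 (SE 0.09). RUNX3, a transcription factor that partners with SMADs, had 76, 78 and 76 counts in controls and 1, 0 and 0 in overexpressing cells. The overexpressing libraries were at the detection floor of 3 counts for RUNX3, and the ratio of summed counts, control over overexpressing and corrected for the TMM-scaled library sizes, was 246 (95% exact counting interval 43.7 to 9757, which covers counting error only). BMP8B had 56, 48 and 45 counts in controls and 10, 8 and 5 in overexpressing cells, a log2 fold change of -2.77 (SE 0.26), but its near-identical neighbour BMP8A makes its reads hard to assign and the value uncertain. AMH and its receptor gene AMHR2 rose from low counts, AMH from 4, 16 and 13 to 34, 34 and 47 and AMHR2 from 8, 8 and 17 to 21, 28 and 26, with log2 fold changes of 1.69 and 1.08. AMH in control library 1 and AMHR2 in control libraries 1 and 2 were under the 1.01 CPM described above. Both genes therefore reached 1.01 CPM in at least 3 libraries only with overexpressing libraries included, where they were high.

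Genes that TGF-beta is known to induce went both ways. SPHK1, a lipid kinase, had 49, 60 and 56 counts in controls and 592, 510 and 580 in overexpressing cells, a log2 fold change of 3.26 (SE 0.14). CCN1, a matricellular protein, had 1080, 1202 and 1203 counts in controls and 4745, 5742 and 4424 in overexpressing cells, a log2 fold change of 2.01 (SE 0.10). In both cases every overexpressing library was above every control. CCN2, a relative of CCN1, rose too, by a log2 fold change of 1.42. FN1, TAGLN, BHLHE40 and COL1A1 fell, with log2 fold changes of -1.25, -0.94, -0.83 and -0.77. TGM2, with a log2 fold change that rounds to 0.58, was just under the threshold, and SNAI1, SNAI2, CDKN1A and VEGFA did not pass the adjusted p.

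Of the 6 genes listed as induced by BMP, 4 were called lower and 1 higher, beside 11.1% and 8.28% of all genes, and with 6 genes no difference is read from this. RUNX3 and GATA3 are counted among the lower ones. RUNX3 was under 1.01 CPM in every overexpressing library, and GATA3 was under it in overexpressing libraries 1 and 2. Both genes reached 1.01 CPM in at least 3 libraries only with controls included. Besides RUNX3, RUNX2, HEY1 and GATA3 fell, with log2 fold changes of -2.51, -1.17 and -1.34, and MSX1 rose by a log2 fold change of 0.79. Of the 8 genes of latent TGF-beta activation and matrix storage, 4 passed the adjusted p (50%, beside 57.6% of all genes) and 3 of these were called (37.5%, beside 19.3%). FBN1 and FBN2, the fibrillins to which latent binding proteins attach, had log2 fold changes of -1.50 and -1.04, and FURIN, the protease that cleaves the TGF-beta precursor, was at 0.85. The BMP antagonist CHRDL1 and the TGF-beta binding proteoglycan BGN fell, with log2 fold changes of -1.38 and -1.36. Of the intracellular regulators, ZEB2 rose and SPTBN1 fell, with log2 fold changes of 1.48 and -0.91.

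**Figure D4:**
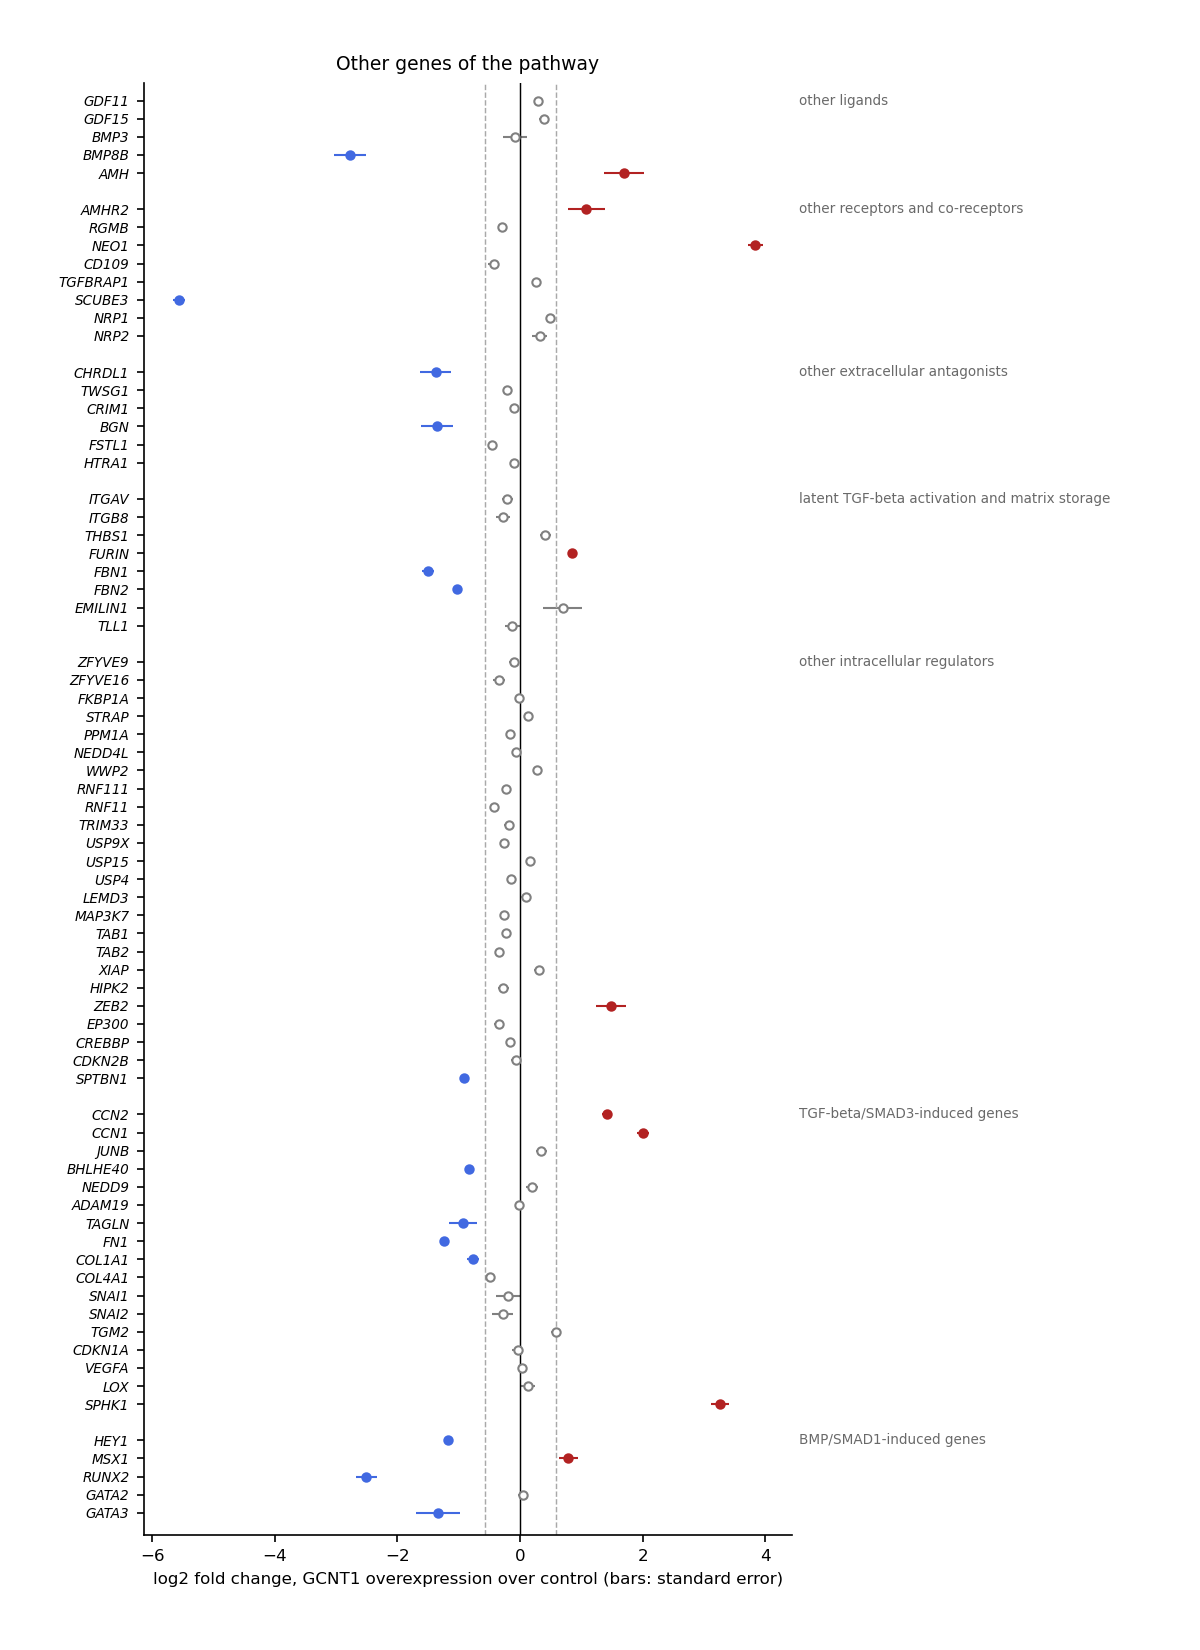
Log2 fold change of GCNT1 overexpressing over control PC3 cells (horizontal axis) for the other pathway genes, grouped by role, with bars for the standard error (3 libraries per group); RUNX3 is left out because its overexpressing libraries are at the detection floor, and 1 further gene is not drawn. Filled points are called genes (red higher, blue lower) and dashed lines mark the threshold of 0.58; NEO1 (3.83) and SCUBE3 (-5.56) lie at the ends.

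Markers of cell types were read in the same libraries. All 4 epithelial markers had a row, with KRT18 the most abundant per kilobase and summed levels of 471, 479.9 and 498 CPM in controls and 463, 411 and 418 CPM with overexpression. Within that list CDH1 was low and fell, from 56, 43 and 34 counts to 15, 14 and 14 counts, a log2 fold change of -1.71. Of the endothelial markers 2 of 4 had a row and went opposite ways, KDR from 2071, 1890 and 1728 counts to 493, 817 and 806 counts and PECAM1 from 18, 24 and 23 counts to 59, 54 and 60 counts. Their summed level, mostly KDR, was 166, 154 and 148 CPM in controls and 47.7, 63.4 and 61.4 CPM with overexpression. COL1A1 was the 1 of 5 fibroblast markers with a row (13.7, 15.7 and 14.3 CPM in controls and 8.55, 8.23 and 8.86 CPM with overexpression) and TMPRSS2 the 1 of 4 androgen axis markers (4.85, 3.94 and 3.81 CPM against 1.64, 1.97 and 1.63 CPM). KLK2, KLK3, CDH5, VWF and the leukocyte markers were not analysed here, and the part of these marker changes in the pathway results was not tested.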

How the data were processed

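RNA of 3 control and 3 GCNT1 overexpressing PC3 lines was made into stranded mRNA libraries. Per the paper's methods, Cutadapt trimming, HISAT2 alignment to hg38 and featureCounts gave the raw counts per Entrez identifier that the authors deposited, unnormalized and unpooled. The gene annotation and the strand setting of the counting are not given in the sources used here. Groups and replicate numbers came from the labels, and the numbers were not used as a block in the main test. In R 4.3.3, edgeR 4.0.16 (filterByExpr, TMM factors, quasi-likelihood test, Benjamini-Hochberg adjustment over 12703 genes) was fitted to all 6 libraries. Calls needed an adjusted p under 0.05 together with a log2 fold change of 0.58 or more in size. Standard errors were derived as the size of the log2 fold change divided by the square root of the quasi-likelihood F statistic. Alternatives were limma-voom (limma 3.58.1), DESeq2 1.42.0, glmTreat, a replicate block, each library left out, scaling by RLE factors or by library size alone, and filters of none or of 10 counts in every library. Scripts were tested on simulated data. Every called listed gene is named with full values and every other one by role. Of the other pathway genes each called one is named, except 1 that is counted but not reported here, the 3 largest rises and falls with counts, and a few others, chosen after their values were seen, as neighbours of these. The members and lists were chosen with earlier results of these data known. Positions are from RefSeq GRCh38.p14, and overlaps and MANE Select lengths from GENCODE 44. Local medians used 25 analysed genes on each side, and other summaries Python 3.11.15.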

Additional observations from a re-analysis of the deposited data

How the results depend on the processing

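Among the alternatives with a value per gene, which leaves out glmTreat, none reversed the direction of any of the 15 called pathway genes or of GCNT1. Over the alternatives other than glmTreat, 182 of 195 log2 fold changes of called pathway genes kept their call, and 11 of the 15 genes were called in each of those fits. The exceptions were SMAD7, SMAD2, LTBP4 and TGFB3. All 12703 genes passed edgeR's filter, so the fit with no filter repeated the main fit and its 15 values were the same by construction. With glmTreat, which tests against the log2 fold change of 0.58 and is stricter by construction, 8 pathway genes were called, 6 of them lower, and 1392 of all genes; TGFB3, LTBP4, BMP4, BMPR1B, SMAD2, SMAD7 and PMEPA1 were lost. The other alternatives called between 12 and 15 pathway genes, the 12 with library size alone, which moved the median log2 fold change of all genes to 0.06. With libraries left out in turn 13 or 14 were called. Of the other pathway genes, 25 were called in the main fit and 25 or 26 in most alternatives. Their count was 20 with glmTreat and 20 with at least 10 counts in every library, a filter that drops genes by construction. With the replicate block 14 pathway genes were called (SMAD7 was lost) and 2423 of all genes. Deviations from the group means had correlations of -0.27, 0.00 and -0.11 between same-numbered libraries. With 3 libraries per group these deviations constrain one another, so the correlations cannot decide whether the numbers pair the libraries. GCNT1 could not be fitted with at least 10 counts in every library and kept its call in 8 of 12 alternatives, with DESeq2 giving an adjusted p of 0.0821 (Benjamini-Hochberg; range over the 12 alternatives 0.0110 to 0.269). SMAD7 and GCNT1 had at most 35 counts in any library, and the part of depth in their lost calls was not tested.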
